A study of Canis lupus familiaris with 8 samples.

Results

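Of 8 arrays of RNA from dog (Canis lupus familiaris) upper jaw bone, 4 carried transcripts of airway-type mucosa and gland. The other 4 had low values of the marker genes BPIFA1, AGR2, TSPAN1 and PIGR. They are called arrays without airway transcripts, though no detection values were used to show absence. The 4 with them were the DT6 and D2 arrays, on which BPIFA1, a secreted defence protein of nose and airway lining, lay above a log2 value of 11, and the 4 without were the D6 and C arrays, on which it lay below 7. The lowest DT6 or D2 value of BPIFA1 was 11.25 and the highest D6 or C value was 6.04, and D2 array 2, the lowest of its side, lay just above the limit of 11. Of 15947 genes measured, 229 were higher in the DT6 and D2 arrays (1.44%) and 5 were lower (0.0314%). A gene was counted as higher when its lowest DT6 or D2 value lay above its highest D6 or C value and the means of the 4 and 4 arrays differed by at least 1 log2. The count of lower genes used the same rule turned round, and 2.09% of genes lay below with no limit on size. Because the arrays were chosen by a measured value, that of BPIFA1, all differences across this division are descriptions, given with no test.

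The study followed healing of a surgical defect in alveolar bone, the bone that holds the tooth roots, with and without orthodontic tooth movement. DT6 was tissue that had regrown in the defect, taken with neighbouring bone at the second premolar of the maxilla after 6 weeks with protraction of a tooth. D2 and D6 were the same kind of tissue after 2 and 6 weeks without it, and C was sound bone at maxillary premolar roots. Each group had 2 arrays, and the number in a group's name was read as weeks after surgery. The labels give no breed, age or sex and do not tie arrays to animals, so the p-values below measure the spread between arrays, which may be technical. The division follows neither time nor tooth movement, since DT6 and D2 differ from each other in both.

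Airways and the nose are lined by a pseudostratified epithelium in which ciliated cells beat the mucus forward, goblet and club cells secrete it, and basal cells renew the others. Glands below it hold serous cells, which release antibacterial proteins, mucous cells, ducts and a sheath of contractile myoepithelial cells. The lining of the mouth, by contrast, is a stratified squamous epithelium with its own keratins.

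Values below are log2 values of probe sets as deposited, where a difference of 1 is taken as a 2-fold change. The bone gene COL1A1, a chain of type I collagen, lay between 13.00 and 13.72 on the 8 arrays and the bone sialoprotein gene IBSP between 10.02 and 12.19, so genes of bone were high on each. DMP1, an osteocyte matrix gene, was uneven within groups, at 12.25 and 6.23 in DT6 and 6.40 and 6.89 in D2, against 6.82 and 11.84 in D6 and 9.63 and 11.62 in C. A pair of arrays, D2 array 2 and D6 array 1, stood apart by stratified oral epithelium genes. KRT13, a keratin of wet stratified lining, was 4.86 and 5.10 in DT6 and 4.75 and 9.48 in D2, against 10.10 and 4.56 in D6 and 5.57 and 4.46 in C. These arrays fall on opposite sides of the division, and without both of them 267 genes were higher and 76 lower.

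Of the 4 marker genes, BPIFA1 set the division, and its values show only how the arrays were chosen. BPIFA1 was 12.69 and 12.08 in DT6 and 12.60 and 11.25 in D2, against 6.04 and 4.86 in D6 and 4.37 and 5.52 in C. AGR2, a protein disulfide isomerase of mucus-making cells, was 8.93 and 8.94 in DT6 and 9.73 and 9.22 in D2, against 4.34 and 3.73 in D6 and 4.26 and 4.66 in C. The difference in means was 6.96 for BPIFA1 and 4.96 for AGR2. No fold is given, since both genes averaged under 5.52 in D6 and C, the level below which the dimmest 25% of genes lie, where the distance from background is not known. TSPAN1, a tetraspanin of secretory epithelium, was 9.50 and 9.81 in DT6 and 10.21 and 10.17 in D2, against 5.82 and 5.01 in D6 and 4.90 and 5.34 in C. PIGR, the receptor that carries IgA and IgM through epithelium, was 10.10 and 9.52 in DT6 and 10.27 and 9.22 in D2, against 5.66 and 5.07 in D6 and 5.46 and 5.31 in C. For AGR2, TSPAN1 and PIGR, which did not set the division, the DT6 and D2 arrays lay above the D6 and C arrays with no overlap. In tissue samples of this kind, fewer cells of a type and less RNA per cell cannot be told apart.

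**Figure D1:**
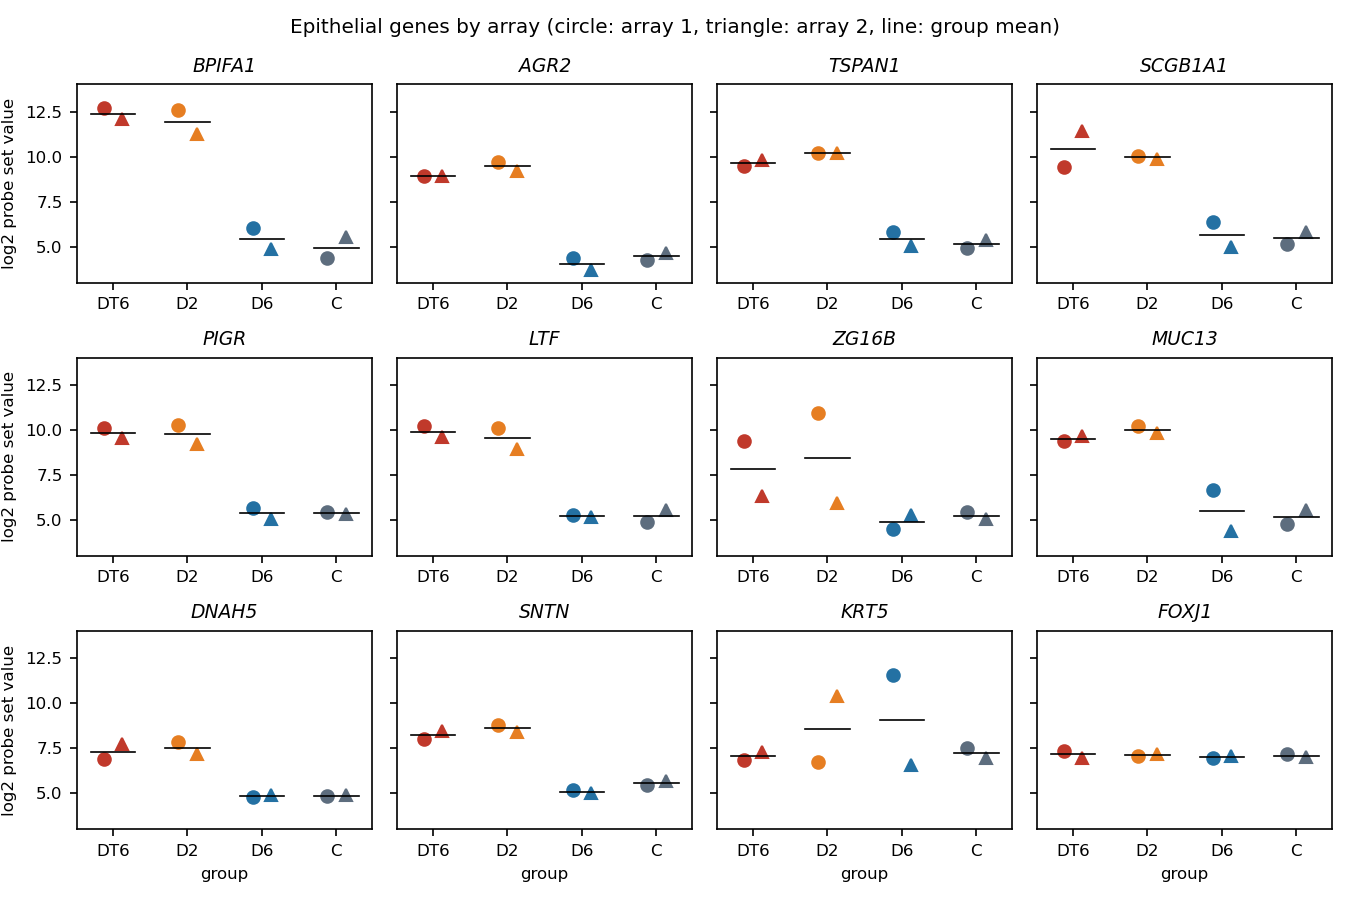
Log2 probe set values (vertical axis) of 12 genes in the 4 groups, with array 1 as a circle, array 2 as a triangle and the group mean as a line. BPIFA1 lies between 11.25 and 12.69 in DT6 and D2, against 4.37 to 6.04 in D6 and C, while KRT5 is high on D2 array 2 (10.39) and D6 array 1 (11.56) and FOXJ1 is level on all 8 arrays.

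The higher genes were sorted with 21 lists of cell type markers, 16 of mucosa, gland and related cell types and 5 of bone, cartilage, muscle and fat. Of the 229 higher genes, 75 stood in at least 1 mucosa or gland list, 0 in a bone, cartilage, muscle or fat list, and 154 in none. The mucosa and gland lists held 287 measured genes, and the 5 other lists only 9 to 13 each. With 1.44% of all genes higher, a count of 0 in lists this short is near the share of all genes. Among the 50 with the largest difference, 31 stood in a mucosa or gland list. The median difference of the 229 genes was 1.70, and 90 of them differed by at least 2 log2 and 32 by at least 3. A gene can stand in more than 1 list.

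**Figure D2:**
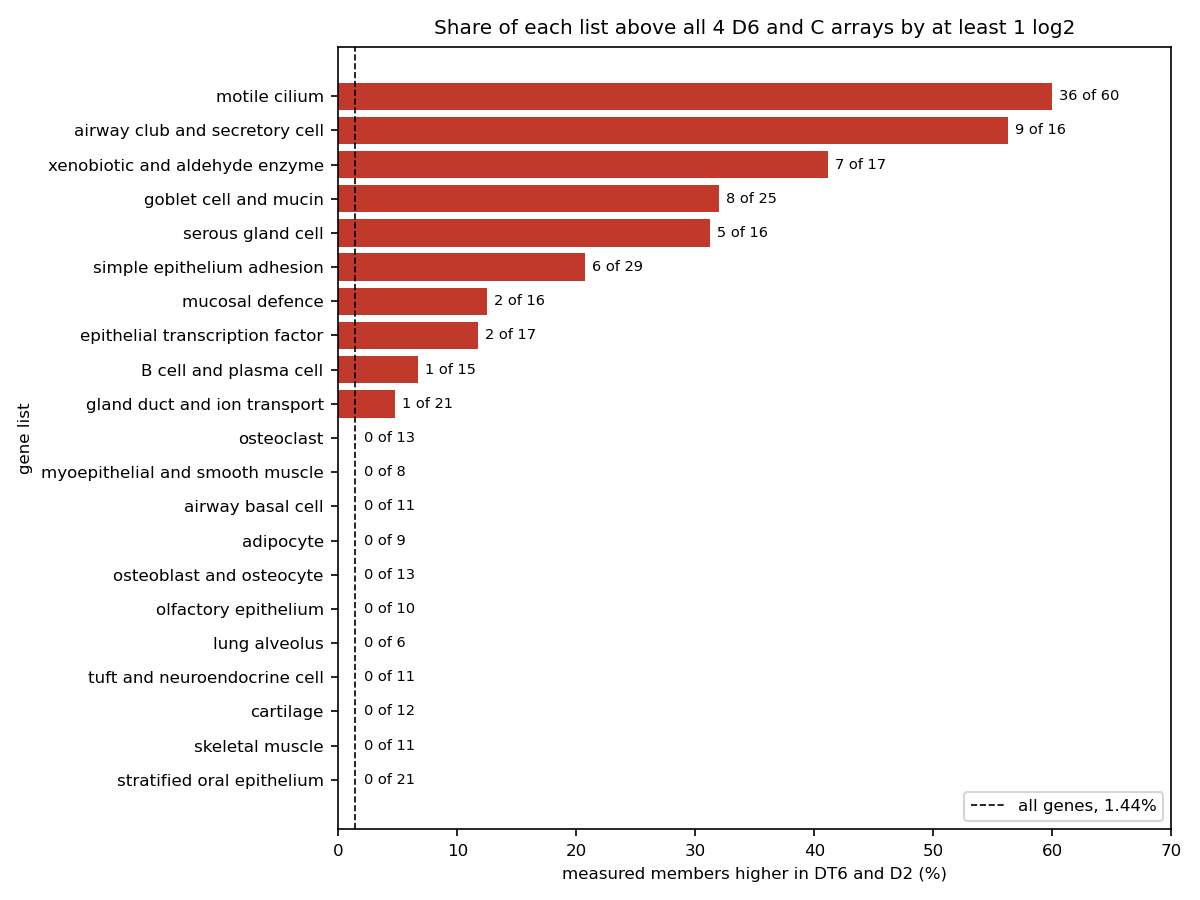
Share of each list's measured members (horizontal axis, percent) that were higher in DT6 and D2, with counts beside the bars. The dashed line is the share among all genes, 1.44%. Motile cilium (36 of 60) and airway club and secretory cell (9 of 16) have the largest shares, and 11 lists, among them airway basal cell and stratified oral epithelium, have none.

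Genes of the motile cilium, the beating organelle of ciliated cells, were the largest group. Of 60 measured members 36 were higher (60.0%, against 1.44% of all genes), 46 lay above D6 and C with no limit on size (4.18% of all genes did), and the list median was 1.19, against −0.02 over all genes. LRRIQ1 had the largest difference among them, with 6.30 and 6.97 in DT6 and 7.23 and 6.24 in D2, against 2.84 and 2.23 in D6 and 2.21 and 2.68 in C. CFAP126, a protein of the ciliary base and axoneme, was 8.03 and 8.28 in DT6 and 8.49 and 8.27 in D2, against 4.80 and 4.73 in D6 and 4.76 and 4.80 in C. For both genes the 4 and 4 arrays lay far apart, with differences of 4.19 for LRRIQ1 and 3.50 for CFAP126. Within each side the arrays were tighter for CFAP126 than for LRRIQ1. DNAH11, a heavy chain of the outer dynein arm that drives the beat, differed by 3.37. The differences were 3.34 for ZBBX, 3.08 for SNTN, a protein of the ciliary tip, and 2.96 for SPAG6, a protein of the central pair of microtubules.

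Many genes of the axoneme's dynein motors were higher. Counting by symbol, a grouping made after the values were seen, 9 of 13 DNAH dynein heavy chains and 3 of 4 DNAI intermediate chains were higher, as were 14 of 31 CFAP genes. Among all genes 1.44% were higher. The tektins, filament proteins of the axoneme's doublet microtubules, gave 0 of 5. TEKT1 was 6.92 and 6.62 in DT6 and 6.79 and 6.70 in D2, against 5.88 and 6.00 in D6 and 6.01 and 6.06 in C, so its arrays did not overlap but its difference of 0.77 was under the limit. Of the regulators of ciliated cell fate, FOXJ1 and MCIDAS were nearly level. FOXJ1, the master transcription factor of motile cilia, was 6.95 to 7.34 in DT6 and D2, against 6.94 to 7.15 in D6 and C. MCIDAS, which starts the ciliated program, differed by 0.08. The ciliary regulators RFX2 and RFX3 differed by 0.51 and 0.56, under the limit, and lay above D6 and C on all 4 DT6 and D2 arrays. COL1A1, IBSP, KRT13, FOXJ1, MCIDAS, RFX2, RFX3, TEKT1 and the genes marked below as added were named after their values were seen. At the limit of 1 log2, TPPP3 lay just inside with 1.0003 and DNAAF1, a factor that assembles dynein arms, just outside with 0.9966.

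Club and secretory cell genes were among those with the largest differences. Of 16 measured members 9 were higher (56.25%, against 1.44% of all genes), with a list median of 1.39. SCGB1A1, the secretoglobin that defines club cells, was 9.41 and 11.39 in DT6 and 10.06 and 9.88 in D2, against 6.36 and 4.98 in D6 and 5.17 and 5.82 in C. BPIFB1, a secreted relative of BPIFA1, was 10.75 and 9.51 in DT6 and 10.88 and 8.02 in D2, against 5.07 and 4.58 in D6 and 4.78 and 4.95 in C. SCGB1A1 was highest on DT6 array 2 and BPIFB1 lowest on D2 array 2 among the 4 arrays with airway transcripts, and their differences were 4.60 and 4.94. VMO1 differed by 4.20, from values of 10.66 to 11.24 in DT6 and D2 against 6.44 to 7.36 in D6 and C. ALDH1A1, a retinaldehyde dehydrogenase, differed by 4.15. SCGB3A2, a secretoglobin of the lower airways named as an added gene, was 4.52 to 4.80 in DT6 and D2, against 4.76 to 5.09 in D6 and C, with no separation of the arrays.

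The BPIF genes form a cluster, and 8 of them were measured. In the gene order of the RefSeq table (assembly UU_Cfam_GSD_1.0) they run BPIFB2, BPIFB6, BPIFB3, BPIFB4, BPIFA2, BPIFA3, BPIFA1 and BPIFB1. BPIFA1 and BPIFB1, the last of that order, were higher, and the other 6 had differences of −0.26 to 0.41. Among those 6, BPIFA2, a protein of salivary glands and an added gene, was 3.76 and 3.60 in DT6 and 3.83 and 3.95 in D2, against 3.72 and 3.56 in D6 and 3.56 and 4.10 in C, a difference of 0.05.

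Goblet cell and mucin genes were mixed. Of 25 measured members 8 were higher (32.0%, against 1.44% of all genes). With no limit on size 10 lay above D6 and C, and the list median was 0.37. MUC13, a membrane mucin, was 9.38 and 9.65 in DT6 and 10.18 and 9.84 in D2, against 6.63 and 4.36 in D6 and 4.77 and 5.56 in C, a difference of 4.43. CLCA1, a protein secreted with goblet cell mucus, was 9.42 and 7.50 in DT6 and 10.49 and 8.89 in D2, against 5.04 and 4.87 in D6 and 4.72 and 5.25 in C, a difference of 4.10. CLCA1 was lowest on DT6 array 2 within the 4 arrays, though still clear of D6 and C. The trefoil peptides TFF1 and TFF3, which are secreted with mucus, differed by 3.21 and 1.78, and the membrane mucin MUC4 by 1.91. The membrane mucins MUC16 and MUC20, as added genes, differed by 1.73 and 1.72. SPDEF, the goblet cell transcription factor and an added gene, had a difference of 0.71, from 5.86 and 6.06 in DT6 and 6.41 and 6.19 in D2, against 5.42 and 5.52 in D6 and 5.58 and 5.17 in C. The gel-forming mucins MUC5AC and MUC5B were not analysed here.

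Serous gland genes were in part higher and varied more between arrays. Of 16 measured members 5 were higher (31.25%, against 1.44% of all genes). With no limit on size 7 lay above D6 and C, and the list median was 0.73. LTF, the iron-binding protein lactoferrin, was 10.23 and 9.57 in DT6 and 10.10 and 8.95 in D2, against 5.29 and 5.16 in D6 and 4.86 and 5.57 in C, a difference of 4.49. DMBT1, a scavenger receptor glycoprotein of mucosal secretions, was 9.92 and 9.71 in DT6 and 9.87 and 7.62 in D2, against 4.94 and 5.18 in D6 and 4.94 and 5.03 in C, a difference of 4.26. LTF and DMBT1 were both lowest on D2 array 2 among the arrays with airway transcripts. ZG16B, a lectin of saliva and other gland secretions, was 9.36 and 6.32 in DT6 and 10.95 and 5.95 in D2, against 4.51 and 5.25 in D6 and 5.41 and 5.07 in C. It was thus high on array 1 of each group and near the D6 and C level on array 2. SLPI, a protease inhibitor of secretions, differed by 3.49.

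LPO, the secreted peroxidase of milk, saliva and airway glands and an added gene, missed the count because of a single array. Its values were 7.23 and 7.004 in DT6 and 7.17 and 4.82 in D2, against 4.88 and 4.57 in D6 and 4.33 and 4.38 in C. AZGP1, a zinc-binding glycoprotein of secretions and also added, was 8.06 and 7.38 in DT6 and 7.36 and 5.87 in D2, against 5.96 and 5.66 in D6 and 5.50 and 5.85 in C. On D2 array 2 both genes lay within the range of D6 and C. LYZ, lysozyme, an added gene that macrophages also express, was 11.20 to 12.24 in DT6 and D2, against 11.03 to 11.55 in D6 and C, with overlap.

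The spread over the 4 arrays with airway transcripts differed between these groups of genes. The median range from lowest to highest array was 0.61 for the 36 higher motile cilium genes, 1.22 for 9 club and secretory genes, 1.45 for 8 goblet genes and 2.30 for 5 serous genes, against 0.69 for all 229. Only genes that met the counting rule enter here, and that rule itself uses the lowest of these 4 arrays. LPO and AZGP1 were thus left out, and the comparison between these groups of genes is a description. D2 array 2 was the lowest of the 4 arrays for 4 of the 5 serous genes, for 17 of the 36 cilium genes and for 67 of the 229. The same array was rich in oral epithelium transcripts, and the part of that in the serous values was not tested.

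**Figure D3:**
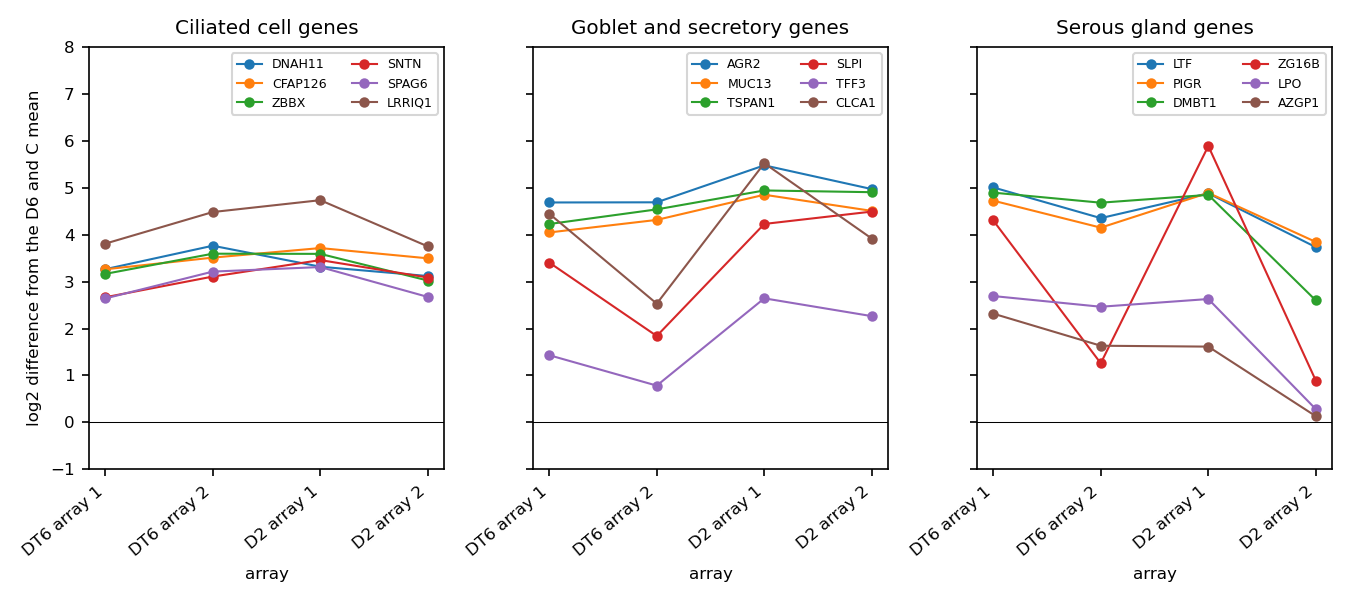
Log2 difference from the mean of the D6 and C arrays (vertical axis) on each of the 4 DT6 and D2 arrays, for 6 ciliated cell, 6 goblet and secretory and 6 serous gland genes. The lines join values of 1 gene and carry no order of the arrays. The ciliated cell genes run nearly flat, while ZG16B varies most and LPO and AZGP1 lie near 0 on D2 array 2.

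Genes of ducts and ion transport differed by small amounts. Of 21 measured members 1 was higher (4.8%), 6 lay above D6 and C with no limit on size (against 4.18% of all genes), and the list median was 0.37. The higher member was CLIC6, an intracellular chloride channel protein, with 8.23 and 7.93 in DT6 and 7.92 and 8.76 in D2, against 5.11 and 6.08 in D6 and 6.89 and 5.94 in C. The epithelial sodium channel subunit SCNN1A and the chloride channel CFTR, both added genes, differed by 0.99 and 0.83. Each lay above D6 and C on all 4 DT6 and D2 arrays, but under the limit of 1 log2. ASCL3, a transcription factor of ion-transporting duct and ionocyte cells and an added gene, was 3.99 and 5.81 in DT6 and 5.23 and 5.62 in D2, against 3.74 and 3.44 in D6 and 4.08 and 3.72 in C. Its arrays overlapped because of DT6 array 1.

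Genes of simple epithelium, the columnar cells of ducts and airway, were in part higher. Of 29 adhesion and keratin genes 6 were higher (20.7%, against 1.44% of all genes). With no limit on size 9 lay above D6 and C, and the list median was 0.50. KRT19, a keratin of simple and glandular epithelium, was 9.32 and 9.04 in DT6 and 9.49 and 9.68 in D2, against 6.76 and 6.11 in D6 and 5.75 and 5.51 in C, a difference of 3.35. PROM1, a glycoprotein of apical cell protrusions, differed by 3.50, the tight junction gene CLDN8 by 2.38, the adhesion molecule EPCAM by 2.24, KRT18 by 1.58 and the membrane protease TMPRSS4 by 1.46. FXYD3, an ion pump regulator shared by several epithelia and an added gene, was not counted because D6 array 1, rich in oral epithelium transcripts, had 9.36, beside 9.09 to 9.48 in DT6 and D2 and 5.15 to 6.18 on the other D6 and C arrays. Of 17 epithelial transcription factors 2 were higher (11.8%), FOXA1 by 1.47 and ELF3 by 1.10, and 5 lay above D6 and C with no limit on size. EHF, also added, had the same pattern as FXYD3, with 7.39 on D6 array 1, beside 7.35 to 7.71 in DT6 and D2 and 4.90 to 5.14 on the other D6 and C arrays.

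No basal, oral or myoepithelial cell marker was counted as higher. In the airway basal cell list 0 of 11 members were higher, with a median of 0.05. KRT15 was 5.61 and 6.18 in DT6 and 5.65 and 7.51 in D2, against 8.38 and 4.29 in D6 and 5.08 and 4.29 in C. KRT5, the main basal keratin and an added gene, was 6.85 and 7.26 in DT6 and 6.72 and 10.39 in D2, against 11.56 and 6.58 in D6 and 7.49 and 6.97 in C. Both keratins were highest on D2 array 2 and D6 array 1, as was KRT13 of the oral list. On the other 6 arrays KRT15 was higher in DT6 and D2 than in D6 and C, while KRT5 overlapped. AQP3, also of the basal list, was 7.42 and 8.10 in DT6 and 7.65 and 8.27 in D2. In D6 it was 8.33 and 6.15, and in C 7.20 and 7.07. AQP3 too was highest on D2 array 2 and D6 array 1, and did not overlap on the other 6 arrays. Whether basal cells took part in the division was not tested. Of 21 stratified oral epithelium genes 0 were higher and 0 lower. Their mean, set against the mean of the D6 and C arrays, was −0.58 and −0.82 in DT6 and −0.79 and 0.53 in D2, against 2.22 and −0.85 in D6 and −0.51 and −0.86 in C. KRT76, a keratin of palate and gum, was 11.64 on D6 array 1 and 5.45 to 6.55 on the other 7 arrays, while KRT4, a keratin of wet stratified lining like KRT13, was 8.79 on D2 array 2, 5.78 on D6 array 1 and 4.04 to 5.45 on the other 6. Of 8 myoepithelial and smooth muscle genes, which blood vessels also express, 0 were higher, and the differences ran from −0.22 to 0.27.

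Markers of other epithelia were flat. The tuft and neuroendocrine, olfactory and lung alveolus lists had 0 of 11, 0 of 10 and 0 of 6 members higher, with medians of −0.11, −0.10 and −0.11. SFTPC, the surfactant protein of alveolar cells, was 5.58 and 5.06 in DT6 and 5.22 and 5.38 in D2, against 5.48 and 5.50 in D6 and 5.77 and 5.65 in C. ADCY3, the adenylyl cyclase of olfactory signalling, which is also widely expressed, was 8.02 to 8.53 in DT6 and D2, against 8.15 to 8.83 in D6 and C. Of 550 olfactory receptor genes 0 were higher.

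**Figure D4:**
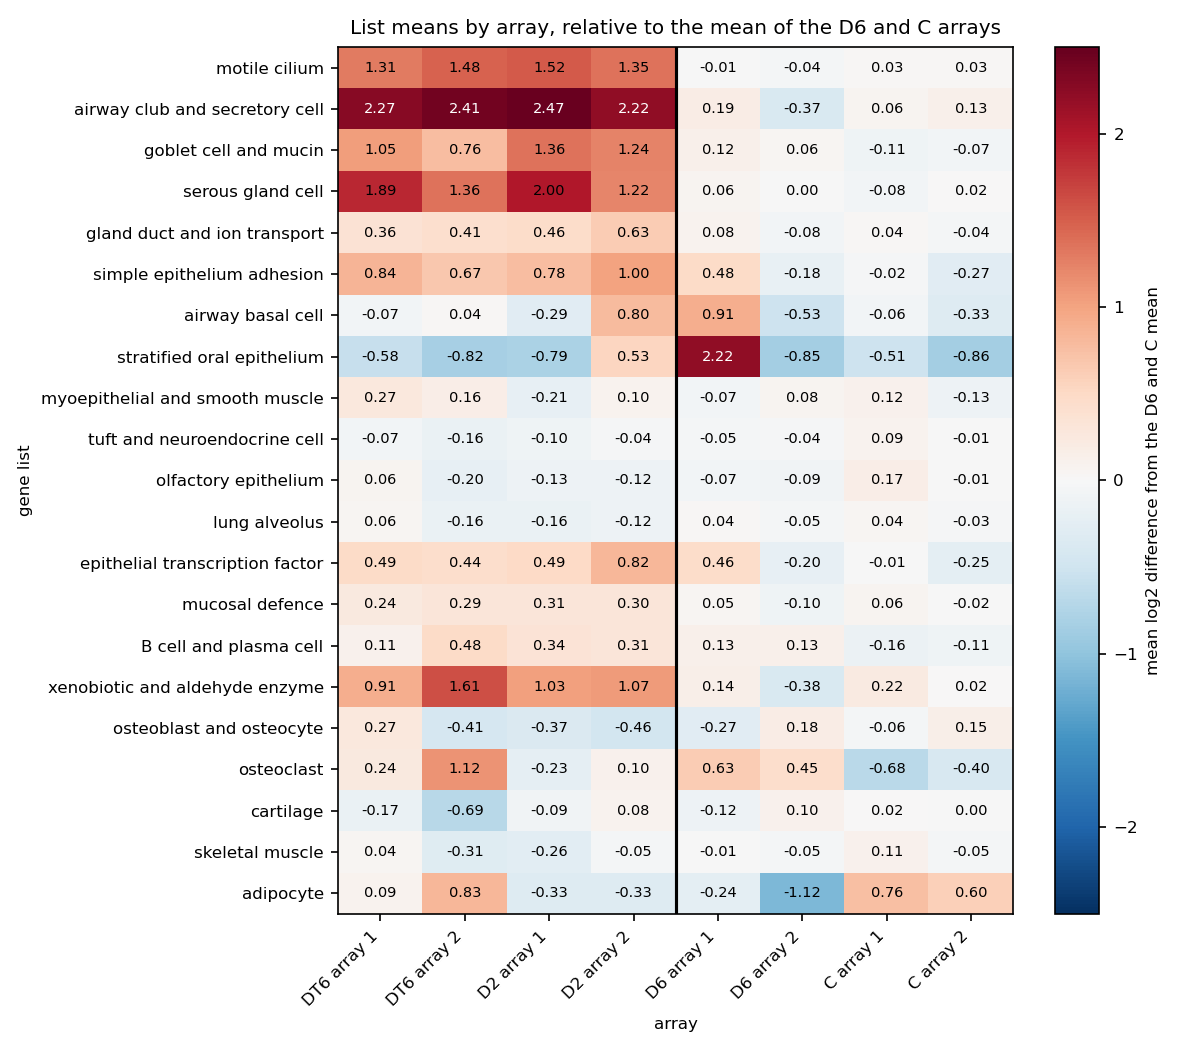
Mean of each gene list on each array, as the log2 difference from its mean over the D6 and C arrays (colour scale and printed values), with DT6 and D2 left of the line and D6 and C right of it. Motile cilium, club and secretory, goblet, serous and xenobiotic enzyme lists are raised on the 4 DT6 and D2 arrays, and the stratified oral epithelium list is raised on D6 array 1 (2.22) and D2 array 2 (0.53).

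Enzymes that act on foreign compounds and aldehydes formed a further group. Of 17 measured members 7 were higher (41.2%, against 1.44% of all genes), with a list median of 0.48. ALDH1A1 counts here as well. CYP2F1, a cytochrome P450 of airway epithelium, was 7.84 and 9.18 in DT6 and 8.18 and 8.80 in D2, against 5.54 and 5.13 in D6 and 5.29 and 5.43 in C, a difference of 3.15. CYP2B6, which the annotation pairs with the canine name CYP2B11, differed by 2.98, the carboxylesterase CES1 by 2.44 and CYP2A13, a P450 of human airway, by 2.21. CYP2A13 was 5.06 and 7.37 in DT6 and 5.49 and 5.73 in D2, against 5.03 and 2.58 in D6 and 3.81 and 3.38 in C, so its lowest DT6 array was next to its highest D6 array. The gene counted under GSTA3, LOC474938, differed by 2.22. Of 38 cytochrome P450 genes, grouped by symbol after the values were seen, 4 were higher.

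Of the immune markers of mucosa, 1 or 2 genes in each list were counted as higher. In the mucosal defence list 2 of 16 members were higher (12.5%, against 1.44% of all genes), with a median of 0.00. With no limit on size, 3 lay above D6 and C and 1 lay below. CXCL17, a chemokine of mucosal surfaces, was 7.60 and 6.90 in DT6 and 7.61 and 8.65 in D2, against 5.20 and 4.98 in D6 and 5.15 and 5.13 in C. CHIA, an acidic chitinase, was 6.43 and 7.48 in DT6 and 8.28 and 6.28 in D2, against 5.07 and 4.91 in D6 and 4.98 and 4.96 in C. Their differences were 2.58 and 2.14. Of 15 B cell and plasma cell genes 1 was higher (6.7%), and 3 lay above D6 and C with no limit on size (4.18% of all genes did). The higher member was JCHAIN, which links the secreted IgA and IgM that PIGR carries, with 9.85 and 11.62 in DT6 and 10.67 and 10.30 in D2, against 9.54 and 9.05 in D6 and 8.04 and 9.06 in C. Its DT6 array 1 lay close to D6 array 1, and the plasma cell receptor TNFRSF17, an added gene, differed by 0.18.

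Among the 20 largest differences 6 genes stood in no list. GABRP, a subunit of the GABA receptor found in epithelia, was 7.84 and 7.86 in DT6 and 8.01 and 8.23 in D2, against 4.64 and 3.91 in D6 and 4.02 and 4.13 in C, a difference of 3.81. FAM216B differed by 3.84, CFAP47, a cilia and flagella associated protein, by 3.80 and TMC5, a transmembrane channel-like protein, by 3.62. LOC611455 and LOC477540, known only by locus identifiers as were 16 of the 229, differed by 3.85 and 3.71. Further genes outside the lists, all added, were the choline transporter SLC44A4 (3.25), GP2, a glycoprotein of secretory granules (3.05), GPX2, a glutathione peroxidase of epithelium (2.66), and CDHR3, a cadherin of ciliated cells (2.24).

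The 5 lower genes were MATN3, NPFFR2, TENM1, FKBP5 and MOXD1. MATN3, a cartilage matrix protein, was 4.50 and 5.38 in DT6 and 4.96 and 5.40 in D2, against 5.46 and 7.04 in D6 and 10.12 and 10.08 in C, a difference of −3.12 that was mostly set by C. FKBP5, a chaperone induced by glucocorticoids, was 8.18 and 8.54 in DT6 and 8.59 and 8.45 in D2, against 9.67 and 10.10 in D6 and 9.41 and 9.98 in C, a difference of −1.35. NPFFR2, a neuropeptide receptor, differed by −1.77, the transmembrane protein gene TENM1 by −1.37 and MOXD1, a monooxygenase-like gene, by −1.01. Without D6 array 1 the number of lower genes was 55, and without C array 1, D2 array 2, D6 array 2, DT6 array 1 or DT6 array 2 it was 8, 10, 8, 16 and 11.

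The division joins a pair of comparisons that share no array, DT6 with D6 and D2 with C. The 229 genes had a median DT6 minus D6 of 1.64 and a median D2 minus C of 1.90, and 154 of them had the larger difference in D2 minus C. Their lowest values were 0.53 and 0.76. Of all genes, 266 had a DT6 minus D6 of at least 1 log2 and 581 a D2 minus C of at least 1 log2, and 198 had both, which was 74.4% of the genes of DT6 minus D6 and 34.1% of those of D2 minus C. In the opposite direction 95 and 222 genes differed by at least 1 log2, and 6 did in both.

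**Figure D5:**
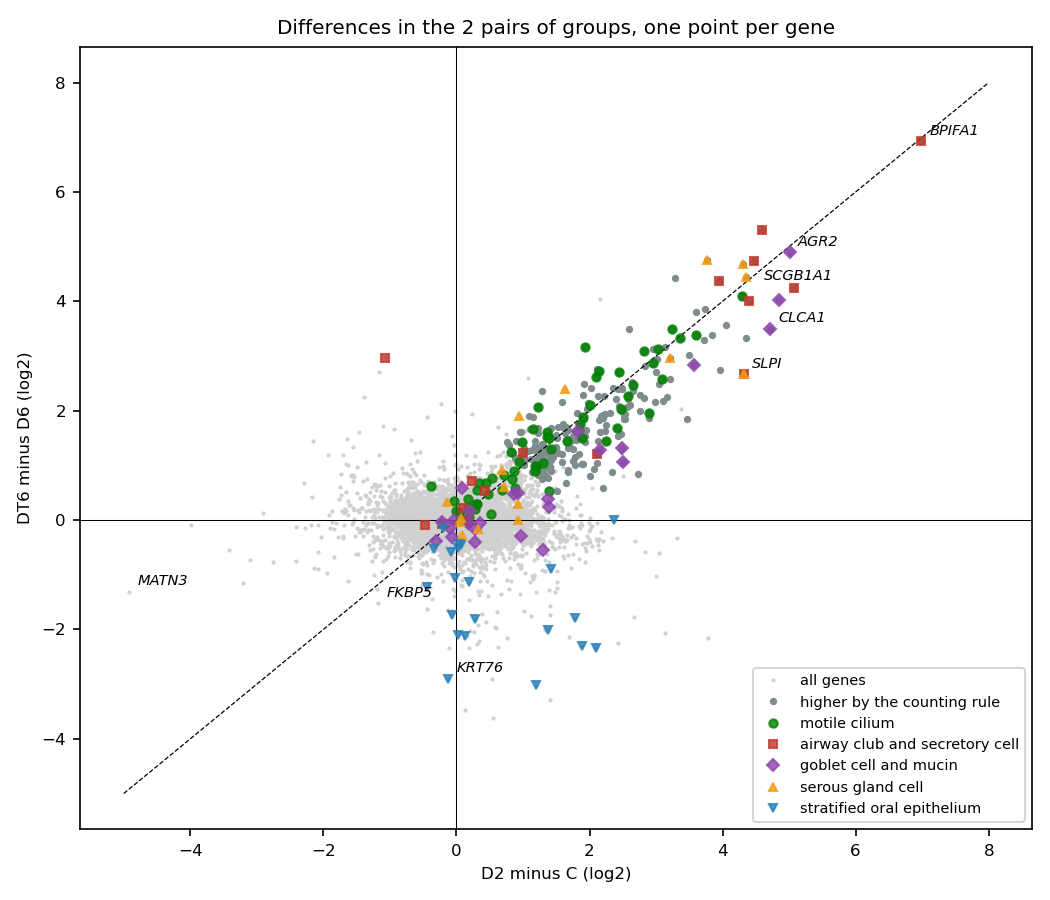
Difference between DT6 and D6 (vertical axis, log2) against that between D2 and C (horizontal axis, log2) for each of 15947 genes, with the higher genes and the members of 5 lists marked and equality as the dashed line. The higher genes lie along the dashed line up to BPIFA1 (6.94 and 6.98), while most stratified oral epithelium genes lie below 0 on the vertical axis.

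Contrasts that do not use the division were tested with limma over all 15947 genes. The ± values are moderated standard errors (SE) from that fit, and the p-values are adjusted by Benjamini-Hochberg. DT6 minus D2 asks whether the groups with airway transcripts differ from each other. In it 0 of 15947 genes passed an adjusted p of 0.05 (0.0%), and 992 had an unadjusted p under 0.05 (6.22%). Of the 229 higher genes 27 had an unadjusted p under 0.05 (11.8%, against 6.22% of all genes). The median over the 229 was −0.14 and 66 of them were above 0. The 229 were chosen by how their arrays lie, so such counts over them are descriptions here and in the next contrasts. The lowest adjusted p among them was 0.182, for CYP3A12, a canine liver and gut P450 and an added gene, which was 4.70 and 4.69 in DT6, against 6.61 and 6.39 in D2. Without DT6 array 1 the contrast gave 24 genes, and without D2 array 1 it gave 5.

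D6 minus C asks the same of the groups without airway transcripts. In it 280 genes passed (1.76%), of which 157 rose (0.985%) and 123 fell (0.771%). Of the 229 higher genes 0 rose and 2 fell. Among them 25 had an unadjusted p under 0.05 (10.9%), against 2613 of all 15947 genes (16.4%). ERICH3, a gene of the motile cilium list, was 4.52 and 4.37 in D6, against 5.56 and 5.65 in C, and fell by 1.16 ± 0.16 (SE, limma adjusted p = 0.0154). TSPAN8, a tetraspanin of secretory epithelium, was 5.71 and 5.54 in D6, against 6.34 and 6.36 in C, and fell by 0.73 ± 0.14 (SE, limma adjusted p = 0.0437). Both genes were lower on each D6 array than on each C array. Mucosa list members outside the 229 that changed were SDC1, a proteoglycan of epithelium and plasma cells, which rose by 1.00, and FMO2, a monooxygenase of lung, which fell by 3.47. The largest rises were LOC488947 (3.29), the interferon-induced genes MX1 (2.80), MX2 (2.72) and DDX60 (2.33), and MMP9, a protease of osteoclasts and neutrophils (2.40). The largest falls were MATN3 (−3.85), FMO2, the enamel matrix gene AMELX (−2.96), MYO16, an unconventional myosin (−2.20), and CNTNAP5 (−2.17). Without C array 1 the contrast gave 0 genes (1986 with an unadjusted p under 0.05), and without C array 2, D6 array 1 or either D2 array it gave 37, 10 and 127. Without DT6 array 1 or array 2 it gave 683 and 675. The ERICH3 call was lost without either C array or D6 array 1, and the TSPAN8 call without any 1 of the C, D2 or D6 arrays.

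The third contrast asks whether the difference between DT6 and D6 is unequal to that between D2 and C. In it 194 genes passed (1.22%), of which 80 rose (0.502%) and 114 fell (0.715%), and of the 229 higher genes 1 rose and 0 fell. It was ERICH3, which differed by 3.16 between DT6 and D6 and by 1.94 between D2 and C, an excess of 1.23 ± 0.22 (SE, limma adjusted p = 0.0431). The median excess over the 229 genes was −0.21. Of the 229, 26 had an unadjusted p under 0.05 (11.4%), against 2419 of all 15947 genes (15.2%). Without C array 1 the number of genes past the threshold in this contrast was 2, and without C array 2, D2 array 1, D2 array 2 or D6 array 1 it was 56, 39, 26 and 46. Without DT6 array 1 it was 516. The ERICH3 call was lost when any array other than DT6 array 1 was left out.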

How the data were processed

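The series' 8 arrays were Affymetrix whole-transcript arrays of total RNA, biotin-labelled without ribosomal RNA reduction, per the labels' protocols. The authors deposited 1 table of log2 values for 22708 probe sets. How they were corrected for background, summarised and normalized, and the base of the logarithm, is not given in the sources used here. The values were read as log2 and as already normalized, since they ran from 0.914 to 14.5 and the array medians from 6.25 to 6.31. Precision is limited by the number of arrays, 2 in a group, and detection values were not used here.

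Groups were taken from the sample titles. The platform annotation gave 1 symbol to 16545 probe sets, several to 370 and no gene to 5793. A RefSeq gene table (assembly UU_Cfam_GSD_1.0) held the identifier of 15820, and 0 symbols changed. For 516 genes with more than 1 probe set the brightest by mean was kept, which left 15947 genes. No genome build is named with the values, and no coordinates or sequences are given.

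The division, the markers, the gene lists and the tests were chosen with earlier results of these data known. Counts across the division used no test. Tests were made with limma 3.58.1 in R 4.3.3, with lmFit on 4 group means (4 residual degrees of freedom), eBayes with a variance trend, two-sided p and Benjamini-Hochberg adjustment over 15947 genes in each of 3 contrasts. The steps were tested on simulated data. A gene "rose" or "fell" where its adjusted p was under 0.05.

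The rule for naming took the 20 largest higher and 10 largest lower genes, up to 6 counted members of each list with the largest difference (or 2 where none was counted), the 4 markers, and, in each contrast, the 5 largest rises and falls and up to 10 mucosa list members past the threshold. Other named genes are marked as added. Alternatives were another way of joining probe sets, quantile normalization, removal of the dimmest 25% of genes, other limits on size, no variance trend, a replicate block, a fit of 2 groups and leaving out arrays.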

Additional observations from a re-analysis of the deposited data

Results flagged for a closer look

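For 15 genes named by the rule the difference between DT6 and D6 was unequal to that between D2 and C by the limma test of that difference (adjusted p under 0.05). The excess of DT6 minus D6 over D2 minus C, on the log2 scale, was −4.18 for LOC488947, −3.43 for MX1, −3.43 for GPNMB, a glycoprotein of macrophages and osteoclasts, −3.29 for MX2, −3.06 for the cartilage proteoglycan gene ACAN, −2.67 for DDX60 and −1.51 for SDC1. It was 3.12 for the complement gene C7, 3.13 for RBP7, a retinol-binding protein, 3.61 for the activin receptor gene ACVR1C, 3.61 for MATN3, 3.87 for PCK1, an enzyme of glucose and glycerol synthesis, 2.97 for MEPE, an osteocyte matrix gene, 1.87 for CNTNAP5 and 1.23 for ERICH3. MX1 was 6.56 and 6.53 in DT6 and 6.62 and 7.73 in D2, against 9.56 and 9.34 in D6 and 6.62 and 6.67 in C, so it was high in D6 alone. GPNMB was 9.41 and 9.72 in DT6 and 10.65 and 10.73 in D2, against 10.27 and 10.04 in D6 and 7.65 and 8.04 in C, so it was low in C alone. Of these 15 genes, ERICH3 was among the 229 and the call of GPNMB was the 1 kept under each alternative run.

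Among probe sets not listed with a gene, which no comparison above uses, 34 of 5793 were higher in DT6 and D2 (0.587%) and 6 were lower, with a largest difference of 5.45.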

How the results depend on the processing

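The count of 229 higher genes was 224 with the mean of a gene's probe sets, 220 after quantile normalization, 130 without the dimmest 25% of genes, 90 at a size of 2 log2 and 440 at 0.5 log2, and 218 to 273 with 1 array left out. The count of 5 lower genes was 1 at 2 log2, 52 at 0.5 log2, 4 to 55 with 1 array left out, and 76 without D2 array 2 and D6 array 1 together, an alternative chosen after seeing the data that gave 267 higher genes. DT6 minus D2 gave 0 to 24 genes with 1 array left out and 0 under the other settings. D6 minus C gave 280 genes, 0 to 683 with 1 array left out and 188 to 352 under the other settings. The contrast of both pairs gave 194 genes, 93 without a variance trend and 2 to 516 with 1 array left out, and the cause of these changes was not tested. A group left with 1 array was assumed to vary like the others. No counted difference and no tested call changed direction under these alternatives. Of the named genes, 0 of 13 calls in D6 minus C and 1 of 15 in the contrast of both pairs were kept under each alternative. The counts by size and without dim genes follow by construction from another limit or from fewer genes.

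Arrays of the same number in 2 groups did not deviate together (r of −0.26 to 0.19), so the numbers give no pairing. With the replicate number as a block, DT6 minus D2 gave 0 genes, D6 minus C 188 and the contrast of both pairs 78. With 2 arrays a group and no detection values, how far low genes lie above background is not known.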

Other observations

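Some genes that glucocorticoids induce were lower on the arrays with airway transcripts. In a list of 13 measured members, written after the values were seen, 1 was lower by the counting rule (0.0314% of all genes were), 6 lay below D6 and C with no limit on size (2.09% of all genes did), 1 lay above them, and the median difference was −0.34, against −0.02 over all genes. Besides FKBP5, TSC22D3, a glucocorticoid-induced leucine zipper protein, was 8.04 and 8.44 in DT6 and 7.82 and 7.91 in D2, against 8.71 and 8.64 in D6 and 9.15 and 8.82 in C. PER1, a clock gene, was 7.06 and 7.17 in DT6 and 7.01 and 6.94 in D2, against 7.55 and 7.61 in D6 and 8.54 and 7.39 in C. ZBTB16, a transcriptional repressor, differed by −0.74 and KLF9, a zinc finger factor, by −0.46, with no overlap of the arrays for either. The genes named here all lie on the lower side. Because the list was made with the values known, its counts beside those of all genes are a description and no test. The cause was not tested.

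Further transcription factors were higher beside FOXA1 and ELF3. PAX6, a factor of eye, nose and brain development, was 6.16 and 6.41 in DT6 and 6.31 and 6.09 in D2, against 5.42 and 4.84 in D6 and 4.78 and 4.73 in C, a difference of 1.30. The transcription factor gene MYB differed by 1.29. Both were picked after their values were seen.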
